A study of Mus musculus with 10 samples.

Results

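The RNA of 10 genes that encode ligand-responsive transcription factors of metabolism and xenobiotic defence was followed in mouse liver. They were chosen by name: Nr1i2 (the pregnane X receptor, PXR), Nr1i3 (the constitutive androstane receptor, CAR), Rxra (retinoid X receptor alpha), Ppara (the fatty acid receptor PPARα), Nr1h3 (the oxysterol receptor LXRα), Esr1 (estrogen receptor alpha), Nr3c1 (the glucocorticoid receptor), Thrb (thyroid hormone receptor beta), Ahr (the aryl hydrocarbon receptor) and Nr5a2 (liver receptor homolog LRH-1). All 10 were found among the 38922 genes listed for each mouse, and all 10 were among the 13719 genes with enough counts to be tested. The livers came from wild-type C57BL/6N males, mice of an inbred strain, aged 6 weeks. One group of 5 mice had been given CD95-Ab, which activates the death receptor Fas (CD95), at 0.5 µg per g of body weight, and the other group of 5 mice an equal volume of saline, both by intraperitoneal injection. Livers were taken at 6 h, and each mouse gave 1 library of whole-tissue RNA.

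Nuclear receptors are transcription factors that small lipophilic molecules switch on. PXR, CAR, PPARα, LXRα and the thyroid hormone receptor bind DNA together with a retinoid X receptor, whereas the estrogen and glucocorticoid receptors bind as pairs of themselves and LRH-1 binds alone. AHR is not a nuclear receptor but a ligand-activated factor of another family, which pairs with ARNT. In hepatocytes these factors set the expression of drug-metabolising enzymes, of fatty acid oxidation, of cholesterol and bile acid handling and of gluconeogenesis.

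Depth was between 25965699 and 62097636 counts per mouse, so that 3 counts were equal to 0.0483 to 0.116 CPM, which are counts per 1000000, at unadjusted totals. The CPM given here use totals adjusted with TMM factors, and they carry the spread of whole tissue, in which fewer cells of a type and less RNA per cell cannot be told apart. The summed CPM of 11 hepatocyte markers was 135421 to 155092 in saline-injected controls and 77251 to 119040 in mice injected with CD95-Ab. Of these 11 markers 3 fell, 1 rose and 7 did not pass the test described below. The albumin gene, 1 of the 11, made up 7.72% to 9.65% of counts in controls and 2.88% to 5.44% after CD95-Ab. Summed markers of other cells were higher after CD95-Ab without overlap of the groups for neutrophils (3.81 to 10.3 against 101 to 393 CPM), sinusoidal endothelium (71.5 to 159 against 207 to 372 CPM), stellate cells (211 to 310 against 459 to 796 CPM), cholangiocytes (18.4 to 33.9 against 48.4 to 186 CPM), lymphocytes (1.32 to 4.75 against 7.21 to 14.4 CPM) and erythroid cells (135 to 323 against 1064 to 33995 CPM). For Kupffer cells and macrophages the groups overlapped (141 to 462 against 280 to 598 CPM). Among tested markers, 5 of 5 rose for neutrophils, 5 of 5 for erythroid cells, 7 of 8 for endothelium and 7 of 8 for lymphocytes. The counts were 6 of 9 for stellate cells, 4 of 5 for cholangiocytes and 3 of 9 for macrophages, of which 1 other marker fell. Over all tested genes 25.4% rose and 22.0% fell by the same test, described below. No marker was at 0 in all controls. The part of these cells in the results below was not tested. In both groups 1 mouse stood apart, saline 5 and CD95-Ab 4, in which 2690 genes longer than 4000 bases were lower relative to 1150 genes shorter than 1000 bases, by 0.52 and 0.67 on the log2 scale, whereas the other mice lay between -0.08 and 0.38. Values without both mice are therefore given where a result rests on them.

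Of the 10 genes, 4 were lower and 1 was higher in mice injected with CD95-Ab at a false discovery rate (FDR) of 0.05 or less in the quasi-likelihood test of edgeR, adjusted over all tested genes. Over all 13719 tested genes the share called lower was 22.0%, the share called higher 25.4% and the share called either way 47.3%, so that the 5 calls among 10 genes lay near the share of all genes. Nr1i3 fell to 12.6% of the saline level, Ppara to 33.1%, Rxra to 56.7% and Thrb to 66.7%, and Ahr rose to 141%. The remaining 5 genes, Nr1i2, Nr1h3, Esr1, Nr3c1 and Nr5a2, did not pass the test. Their 95% intervals of the level relative to saline ran from 62.2% at the lowest, for Esr1, to 190% at the highest, for Nr5a2. The median log2 fold change was -0.20 over the 10 genes and 0.01 over all tested genes. The groups did not overlap for 2 of the 10 genes, Nr1i3 and Ppara, both lower after CD95-Ab. Over all tested genes the groups were apart for 33.3%, and apart with CD95-Ab lower for 14.7%. The same 4 genes were called lower and the same gene higher without saline 5 and CD95-Ab 4, and with each mouse left out in turn.

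**Figure D1:**
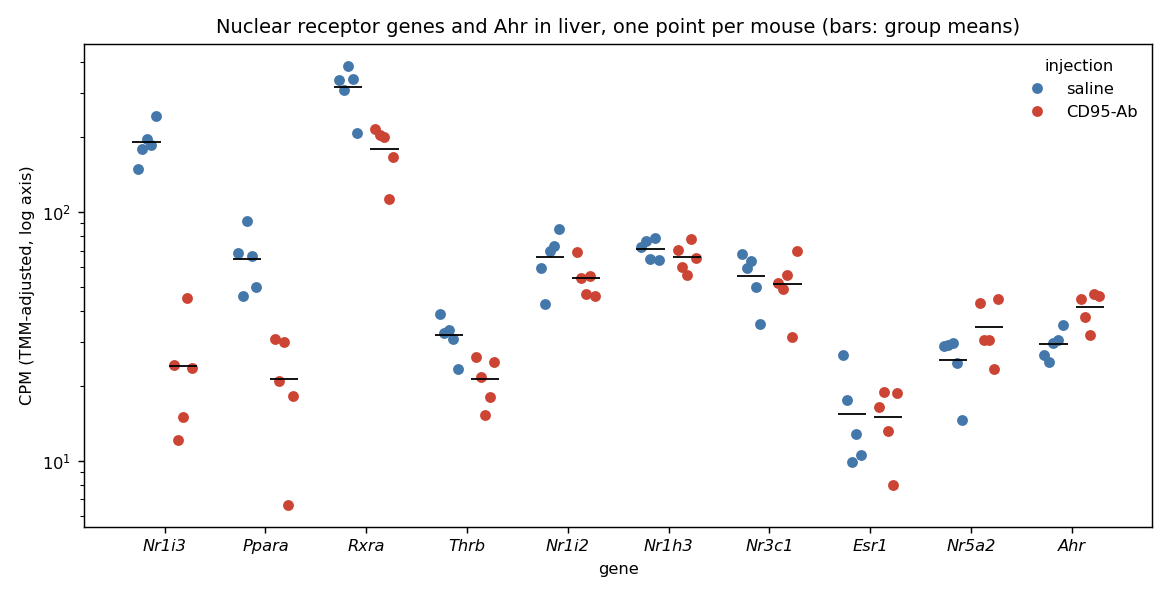
CPM (log axis) of the 10 genes in each of the 5 saline-injected controls (blue) and 5 mice injected with CD95-Ab (red), 1 point per mouse in the order of the replicate numbers, with group means as bars and genes ordered by fold change. The blue and red points are apart for Nr1i3 and Ppara and overlap for the other 8 genes.

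Levels of different genes were compared per transcript length, in FPKM. In saline-injected controls the highest mean FPKM was that of Nr1i3, 85.4 ± 10.1 (SD, n = 5), followed by Rxra at 69.1 ± 18.4 and Nr1h3 at 43.0 ± 7.36. Nr1i2 at 26.8 ± 4.20 FPKM and Ppara at 25.2 ± 6.92 FPKM came next. The last 5 places in this FPKM order went to Nr3c1 (9.45 ± 2.90), Nr5a2 (7.39 ± 2.38), Thrb (5.64 ± 1.46), Ahr (5.61 ± 0.18) and Esr1 (2.71 ± 1.40). Neighbours in this order had FPKM ranges that did not overlap only between Nr1h3 and Nr1i2, between Ppara and Nr3c1, and between Ahr and Esr1. After CD95-Ab the order of mean FPKM was Rxra (37.1 ± 11.7), Nr1h3 (36.9 ± 6.16), Nr1i2 (21.4 ± 5.83), Nr1i3 (13.7 ± 6.40), Nr5a2 (9.51 ± 3.42), Ppara (8.53 ± 4.66), Nr3c1 (8.49 ± 2.71), Ahr (7.69 ± 1.78), Thrb (3.58 ± 1.14) and Esr1 (2.50 ± 0.91). There, only Ahr and Thrb were neighbours with FPKM ranges apart. Nr1i3 thus went from the 1st to the 4th position and Ppara from the 5th to the 6th. The ratio of the highest to the lowest mean FPKM was 31.5 in saline-injected controls and 14.8 after CD95-Ab.

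CAR and PXR are sister receptors that sense drugs, bile acids and other foreign or toxic molecules and share many target genes. Nr1i3 lies on chromosome 1 at 171213970-171220701 (plus strand, GRCm38) with 8 annotated transcripts, and Nr1i2 on chromosome 16 at 38248323-38294824 (minus strand) with 1 transcript. The 250 bases before their annotated start sites are shown because the RNA of these sister genes took different courses; they were read from RefSeq sequence of GRCm38.p6, 5′ to 3′ on the strand of each gene, at chr1:171213720-171213969 for Nr1i3 and chr16:38294825-38295074 for Nr1i2.
Nr1i3: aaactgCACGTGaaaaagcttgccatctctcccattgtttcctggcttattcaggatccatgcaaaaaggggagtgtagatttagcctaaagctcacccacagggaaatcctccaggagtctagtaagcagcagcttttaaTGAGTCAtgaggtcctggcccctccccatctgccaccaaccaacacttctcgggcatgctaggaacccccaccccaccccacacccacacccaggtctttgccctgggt
Nr1i2: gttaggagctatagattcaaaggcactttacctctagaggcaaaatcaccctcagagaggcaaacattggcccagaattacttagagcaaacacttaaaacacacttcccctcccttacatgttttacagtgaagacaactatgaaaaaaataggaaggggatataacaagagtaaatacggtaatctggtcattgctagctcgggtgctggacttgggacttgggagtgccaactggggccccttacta
Capitals mark matches, on either strand, to any of 4 motifs: the nuclear receptor half-site AGGTCA, the AP-1 motif TGACTCA, the E-box CACGTG and the AHR core GCGTG. The Nr1i3 window held an E-box match starting 244 bases before the start site and an AP-1 match, written in its reverse complement TGAGTCA, starting 109 bases before it. The Nr1i2 window held none of the 4, and the marked matches do not overlap. Whether any match bears on the RNA levels was not tested. Over all 32851 RefSeq promoter windows of this length, 6.02% held the E-box, 4.46% the AP-1 motif, 14.02% the half-site and 28.2% the AHR core. GC content was 53.2% in the Nr1i3 window and 44% in that of Nr1i2. Entries were present for 8 of the 10 genes, all but Ahr and Nr3c1.

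Nr1i3 showed the largest difference among the 10 genes. Its CPM were 149, 180, 196, 187 and 243 in saline-injected controls 1 to 5, and 24.3, 12.1, 14.97, 44.9 and 23.7 in mice 1 to 5 injected with CD95-Ab. Every mouse injected with CD95-Ab was below every control, and the highest of the 5, CD95-Ab 4, had less than the lowest control. The log2 fold change was -2.99 ± 0.32 (SE), with an FDR of 2.1e-05, and the level was 7.95-fold lower with a 95% interval of 7.72% to 20.5% of saline. These values are of counts, which are not scaled for transcript length, and that length differed as well (below). Per length, the mean was 85.4 ± 10.1 FPKM in controls and 13.7 ± 6.40 FPKM after CD95-Ab. A called log2 fold change of -2 or below, as Nr1i3 had, was found for 1.11% of tested genes. Without saline 5 and CD95-Ab 4, the highest mice of their groups, the log2 fold change was -3.25. The coefficient of variation was 17.8% in saline-injected controls and 53.6% after CD95-Ab.

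Nr1i2 did not pass the test. Its CPM were 59.4, 42.8, 69.4, 73.2 and 85.1 in saline-injected controls and 69.0, 54.2, 46.8, 55.3 and 45.9 after CD95-Ab. No mouse injected with CD95-Ab was below the lowest control, saline 2, and the log2 fold change was -0.28 ± 0.18 (FDR = 0.222). The interval of its level, 62.4% to 108% of saline, does not reach the interval of Nr1i3. The FPKM of Nr1i3 were 2.72 to 4.34 times those of Nr1i2 in saline-injected controls and 0.347 to 1.24 times after CD95-Ab. The log2 ratio of Nr1i3 to Nr1i2 CPM differed by -2.86 between the groups, which were apart (exact permutation test, two-sided, p = 0.00794, which is the lowest value groups of 5 can give, and 0.0317 after Benjamini-Hochberg adjustment over 12 receptor ratios).

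The transcript length behind the Nr1i3 counts differed as well. Counts and FPKM of the same mouse together give the effective length that RSEM used for a gene, a mean over its annotated transcripts weighted by their estimated abundance. For Nr1i3 it was 2302, 2411, 2361, 2265 and 2095 bases in saline-injected controls and 1791, 1605, 1637, 1638 and 1666 bases after CD95-Ab. The groups were apart, with means of 2287 ± 121 and 1667 ± 72.3 bases, a difference of -27.1% (exact permutation test, two-sided, p = 0.00794, n = 5 per group). That p-value is the lowest that groups of 5 can give and is not adjusted over genes. The measure was chosen after the data were seen. Among 6840 genes with at least 2 FPKM and 100 counts in every mouse, the groups were apart and shorter for 1.43%, and only 2 genes shortened more than Nr1i3 on the log2 scale (-0.45 for Nr1i3). The 5th and 95th percentiles of that log2 difference were -0.07 and 0.07 over these genes. The study's methods name a human annotation for these mouse data, so the transcripts that RSEM used for Nr1i3 are not known. In the mouse annotation used here, Nr1i3 transcripts are between 1272 and 2980 bases long. The longest, Nr1i3-208 of 2980 bases, is the only one that ends at 171220701, whereas the second longest, Nr1i3-207 of 2855 bases, is a retained-intron transcript. Which transcripts gave the difference was not tested, because the tables hold 1 value per gene.

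Nr1i3 overlaps Tomm40l, a gene of the mitochondrial import machinery on the opposite strand, and whether strand was used in counting is not given in the sources used here. Reads of both genes in the shared stretch can then not be told apart. Tomm40l itself had 12.2 ± 2.50 CPM in saline-injected controls and 9.21 ± 0.42 after CD95-Ab (log2 fold change -0.40, FDR = 0.0477). Its effective length was 2334 ± 191 bases and 2354 ± 97.4 bases, without a separation of the groups. Of the other 9 genes described here only Nr1h3 had groups apart, from 1718 ± 4.72 to 1738 ± 6.11 bases, a difference of 1.18%. Over the 6840 genes, which Esr1 did not enter, groups were apart in either direction for 2.62%.

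**Figure D2:**
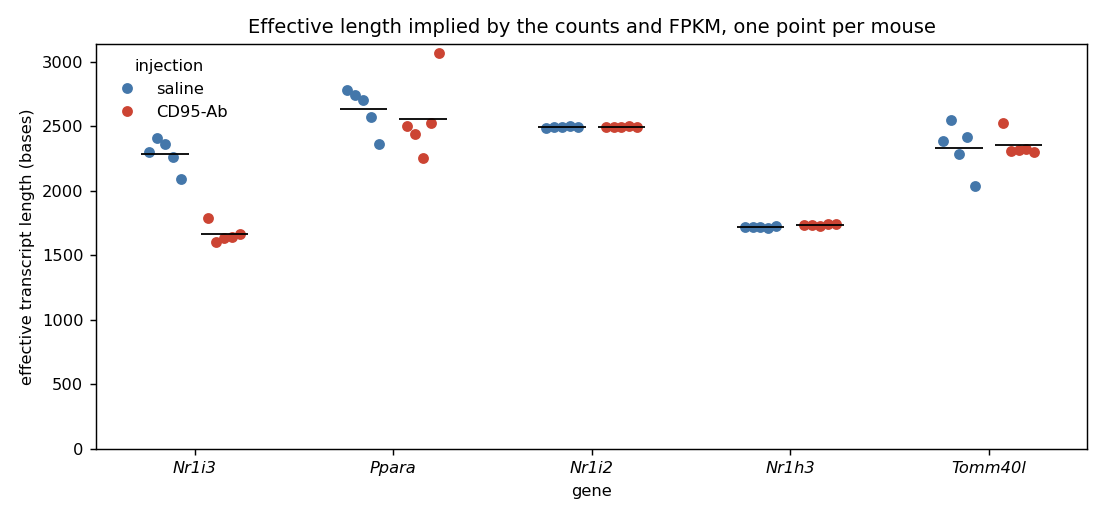
Effective transcript length in bases (axis from 0), derived from the count and the FPKM of each mouse, for Nr1i3, Ppara, Nr1i2, Nr1h3 and the antisense neighbour Tomm40l, 1 point per mouse with bars at group means. The Nr1i3 points lie at 2095 to 2411 bases in saline-injected controls (blue) and at 1605 to 1791 bases after CD95-Ab (red).

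Target genes of PXR and CAR were lower more often than higher. Of 26 listed genes 25 were tested, 12 fell, 1 rose and 12 did not pass, with a median log2 fold change of -0.65. Over all tested genes 22.0% were called lower and 25.4% higher, and these shares apply beside the lists below, singly and together. The gene that rose was Abcc4, an efflux transporter (0.86, FDR = 0.0132), named after its value was seen. Cyp2a4, a steroid-hydroxylating cytochrome P450, went from 81.0 ± 77.0 to 1.48 ± 1.53 CPM (log2 fold change -5.82, FDR = 0.000506), although its reads are hard to part from those of the close paralog Cyp2a5, which fell by 1.68 on the log2 scale (FDR = 0.00273). Slco1a4, an organic anion uptake transporter, fell from 74.3 ± 13.9 to 15.1 ± 7.42 CPM. Cyp3a11, a main drug-metabolising P450 and the most abundant gene of the list, had 5769 ± 2173 CPM in controls and 4320 ± 1916 CPM after CD95-Ab (log2 fold change -0.42, FDR = 0.40). Gstm1, a glutathione transferase, had a log2 fold change of -0.88 (FDR = 0.0385), but the call was lost with any 1 of 5 of the 10 mice left out, saline 1 and 5 and CD95-Ab 2, 3 and 5, at an FDR of up to 0.105.

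Cyp2b9 and Cyp2b10, paralogous P450 genes of the CAR-responsive Cyp2b family between which reads may be shared out, had few counts. Cyp2b10, given here outside the naming rule, had 3.53, 0.623, 8.34, 11.7 and 11.6 CPM in saline-injected controls and 0.128, 0.191, 8.32, 0.444 and 0.731 CPM after CD95-Ab. CD95-Ab 3 lay within the controls and the other 4 mice were low, together with saline 2. The log2 fold change of Cyp2b10 was -1.90 (FDR = 0.145), and -4.20 (FDR = 0.00205) without CD95-Ab 3. Cyp2b9 showed the same high mouse, with 3.15 CPM in CD95-Ab 3 and 0 to 0.161 in the other 4. Its log2 fold change of -3.09 passed (FDR = 0.0399), but not with any 1 of 7 of the 10 mice left out, which were saline 3, 4 and 5 and CD95-Ab 1, 2, 4 and 5, at an FDR of 0.0549 to 0.0832. The list had 10 lower genes without saline 5 and CD95-Ab 4, and 7 without CD95-Ab 2. The median deviation of the 25 genes from the control mean, per mouse, was -0.44 to 0.34 on the log2 scale in controls and -0.86 to -0.45 after CD95-Ab.

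Rxra, the common partner of most receptors described here, lies on chromosome 2 at 27676440-27762957 (plus strand) and fell. The CPM of Rxra were 340, 309, 386, 342 and 208 in saline-injected controls and 215, 204, 201, 113 and 166 after CD95-Ab. Saline 5 and CD95-Ab 4 were the lowest mice of their groups, and 4 of the 5 mice injected with CD95-Ab were below all controls. Its log2 fold change was -0.82 ± 0.21 (FDR = 0.00641), the same -0.82 without both of those mice and -0.94 to -0.70 with 1 mouse left out. Rxrb and Rxrg, which encode the other retinoid X receptors, fell too. Rxrb went from 20.8 ± 2.67 to 13.6 ± 0.98 CPM (log2 fold change -0.62, FDR = 0.00105) and Rxrg from 3.67 ± 1.14 to 1.54 ± 0.42 CPM (-1.25, FDR = 0.00189), with the groups apart for both. Rxra made up 84.3% ± 1.99 of the summed retinoid X receptor FPKM in controls and 83.1% ± 4.51 after CD95-Ab.

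Ppara, which switches on fatty acid oxidation and ketone body formation in fasting, fell in all 5 mice injected with CD95-Ab relative to every control. It lies on chromosome 15 at 85734983-85802819 (plus strand). The CPM of Ppara were 68.2, 45.9, 92.0, 66.3 and 50.1 in saline-injected controls and 30.7, 20.9, 30.02, 6.66 and 18.3 after CD95-Ab. The groups did not overlap, and CD95-Ab 4 was by far the lowest mouse. This gave a log2 fold change of -1.60 ± 0.35 (FDR = 0.00261), or 33.1% of saline with a 95% interval of 19.6% to 55.8%. It was -1.46 without saline 5 and CD95-Ab 4. Ppard, which encodes the widely expressed PPARδ, moved the other way, from 4.61, 4.24, 4.68, 4.58 and 6.67 CPM to 7.99, 10.3, 10.4, 11.1 and 11.1 CPM (log2 fold change 1.04, FDR = 0.000234). Pparg, the adipogenic PPARγ, rose from 5.06 ± 0.83 to 7.53 ± 0.86 CPM (0.57, FDR = 0.00709). The FPKM of Ppara were 8.71 to 22.0 times those of Ppard in controls and 0.713 to 4.49 times after CD95-Ab. The log2 ratio of their CPM differed by -2.76 (exact permutation test, two-sided, p = 0.00794, adjusted 0.0317), with the groups apart.

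Of 30 listed PPARα target genes 29 were tested, 23 fell, 3 rose and 3 did not pass, and the median log2 fold change was -0.93. The same counts without saline 5 and CD95-Ab 4 were 23 lower and 2 higher. With 1 mouse left out they were 19 to 24 lower and 2 to 3 higher. Cyp4a14, a fatty acid omega-hydroxylase, fell from 364 ± 291 to 41.2 ± 21.9 CPM (log2 fold change -3.14, FDR = 0.00145), and its neighbour Cyp4a31 by 2.53 on the log2 scale (FDR = 0.000754). These Cyp4a genes are close paralogs whose reads may be shared out between them. Acot3, a peroxisomal acyl-CoA thioesterase, fell from 4.80 ± 1.38 to 0.558 ± 0.14 CPM, and Fgf21, a fasting hormone made by the liver, from 5.78 ± 6.48 to 0.753 ± 0.49 CPM (-2.91, FDR = 0.00651). The abundant fatty acid binding protein gene Fabp1 had a log2 fold change of -0.93 (FDR = 0.0394) that was lost with any 1 of 7 of the 10 mice left out (saline 3, 4 and 5, CD95-Ab 1, 2, 3 and 5, FDR up to 0.0934).

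The 3 target genes that rose act in fatty acid uptake and storage and in glucose oxidation, and were named after their values were seen. Cd36, a fatty acid translocase that macrophages and endothelium also make, rose from 15.2 ± 2.81 to 42.1 ± 8.15 CPM. Pdk4, a kinase that shuts off pyruvate dehydrogenase, went from 3.93 ± 2.78 to 10.6 ± 1.34 CPM (log2 fold change 1.44, FDR = 0.0161). Plin2, a lipid droplet coat protein gene, was at the threshold (0.51, FDR = 0.0492), and its call was lost with any 1 mouse left out other than saline 4, at an FDR of up to 0.126. The median deviation of the 29 genes from the control mean was -0.43 to 0.31 per control mouse and -1.03 to -0.69 per mouse injected with CD95-Ab, so that the groups were apart on the log2 scale.

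Of 18 tested genes of the coregulators that these receptors recruit, 2 fell, 1 rose and 15 did not pass, with a median log2 fold change of -0.07. Ppargc1b and Ppargc1a encode the PGC-1 coactivators, which drive mitochondrial and fatty acid oxidation genes together with PPARα. Ppargc1b had 6.49, 5.16, 6.96, 6.31 and 6.77 CPM in controls and 1.03, 0.732, 1.15, 0.565 and 0.841 CPM after CD95-Ab, and all 5 mice were far below the controls (log2 fold change -2.87, FDR = 1.4e-06). Ppargc1a fell from 7.98 ± 2.22 to 2.77 ± 1.53 CPM (-1.52, FDR = 0.00459), also without overlap. Nrip1, a corepressor gene also called RIP140, rose from 8.86 ± 1.17 to 19.9 ± 3.94 CPM (1.17, FDR = 0.000102). By the mean over all 10 mice the most abundant coregulator genes were Ncor1 (-0.25, FDR = 0.24) and Tbl1xr1 (0.44, FDR = 0.107), which did not pass, although Ncor1 did without CD95-Ab 5 (-0.39, FDR = 0.0451) and Tbl1xr1 without CD95-Ab 4 (0.56, FDR = 0.0173).

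**Figure D3:**
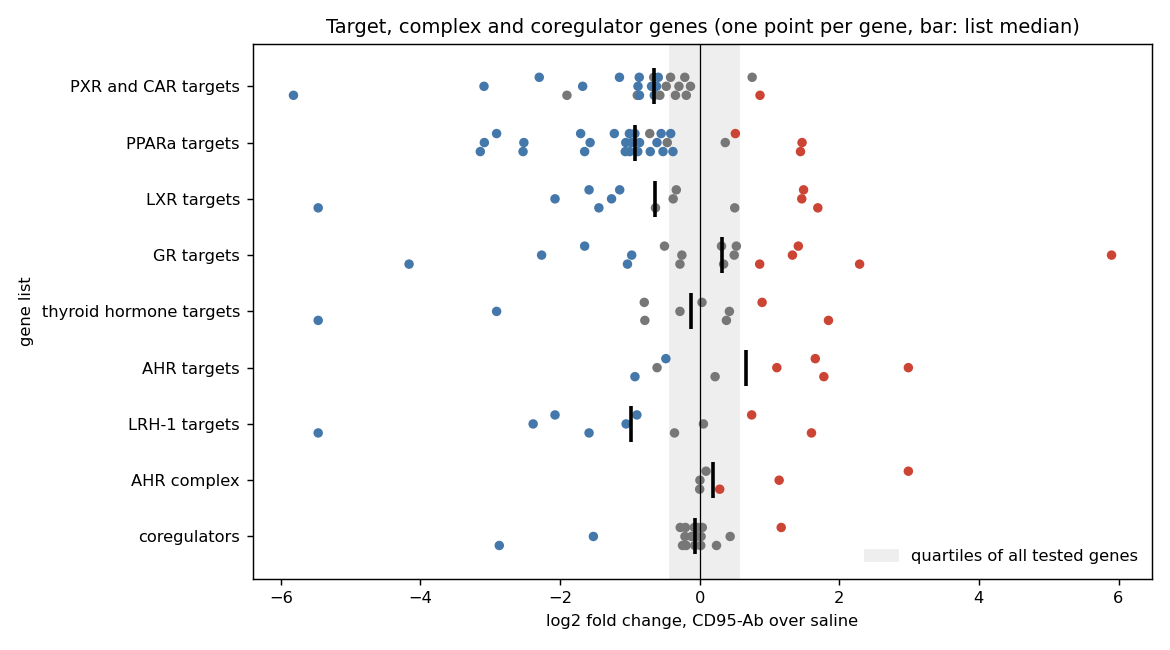
Log2 fold change of every tested gene of the target lists, the AHR complex and the coregulators (blue, lower; red, higher; grey, FDR above 0.05), with the list median as a bar and the quartiles of all tested genes, -0.42 and 0.57, shaded. The medians of the PPARα, PXR and CAR, LXR and LRH-1 target lists, at -0.93, -0.65, -0.63 and -0.98, lie left of the shaded band, and the AHR target list, at 0.66, lies right of it.

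Nr1h3, on chromosome 2 at 91184061-91202834 (minus strand), did not pass the test. Its CPM had the lowest coefficients of variation of the 10 genes in both groups, 9.15% in controls and 13.1% after CD95-Ab, whereas in FPKM the coefficient in controls was 17.1%, above those of Ahr (3.21%), Nr1i3 (11.8%) and Nr1i2 (15.7%). LXRα, its product, answers to oxysterols and directs cholesterol efflux, biliary cholesterol secretion and fatty acid synthesis. Its CPM were 72.2, 76.5, 64.9, 78.3 and 64.1 in saline-injected controls and 70.3, 60.1, 55.9, 77.8 and 65.1 after CD95-Ab. The groups overlapped, and the log2 fold change was -0.11 ± 0.12 (FDR = 0.467), with a 95% interval of 77.1% to 111% of the saline level. The second LXR gene, Nr1h2, had 31.2 ± 3.03 and 33.0 ± 5.66 CPM (FDR = 0.639). Nr1h4, which encodes the bile acid receptor FXR, was 104, 113, 115, 120 and 137 CPM in controls and 48.8, 38.5, 52.0, 67.3 and 61.5 CPM after CD95-Ab, and its groups were apart (log2 fold change -1.13, FDR = 0.000112).

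All 13 listed LXR target genes were tested. 6 fell, 3 rose and 4 did not pass, with a median log2 fold change of -0.63. Cyp7a1, the rate-limiting enzyme of bile acid synthesis, had 39.4, 69.8, 44.9, 56.2 and 39.8 CPM in controls and 1.76, 0.382, 0.478, 1.41 and 1.53 CPM after CD95-Ab, so that every mouse was far below the controls (log2 fold change -5.46, FDR = 1.4e-06). Abcg5 and Abcg8 together encode the transporter that secretes cholesterol into bile. Abcg8 fell by 2.07 and Abcg5 by 1.58 on the log2 scale, both without overlap of the groups. Scd1, a fatty acid desaturase gene, fell from 6215 ± 2185 to 2809 ± 952 CPM, and Apoe, a lipoprotein gene, had a log2 fold change of -0.38 (FDR = 0.153) that was called only without CD95-Ab 4 (-0.54, FDR = 0.0384). The median deviation of the 13 genes from the control mean was -0.12 to 0.17 per control mouse and -0.79 to -0.26 per mouse injected with CD95-Ab.

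The LXR targets that rose were Lpl, a lipoprotein lipase gene, and Abca1 and Abcg1, the cholesterol efflux pumps of peripheral cells, of which the pumps were named after their values were seen. Lpl went from 71.2 ± 17.3 to 230 ± 20.1 CPM (log2 fold change 1.69), Abca1 from 162 ± 24.0 to 445 ± 105 CPM (1.46) and Abcg1 from 3.82 ± 1.09 to 10.7 ± 3.22 CPM (1.49). These 3 genes are also made by macrophages, whose 9 summed markers had a median of 251 CPM in controls and 535 CPM after CD95-Ab, with 3 markers higher and 1 lower, and their part was not tested.

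Nr3c1 on chromosome 18 did not pass the test. Its product, the glucocorticoid receptor, drives gluconeogenesis and damps inflammation. Its CPM were 67.5, 59.8, 63.3, 50.1 and 35.5 in saline-injected controls and 52.0, 49.0, 55.7, 31.4 and 69.8 after CD95-Ab, with saline 5 and CD95-Ab 4 the lowest of their groups. The estimate was -0.10 ± 0.22 on the log2 scale (FDR = 0.731, and -0.10 also without these mice), with a 95% interval of 67.4% to 129% of the saline level. Nr3c2, the mineralocorticoid receptor gene, had 9.64 ± 5.24 and 6.35 ± 1.88 CPM (FDR = 0.172).

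Of the 17 glucocorticoid receptor target genes 5 were higher, 5 lower and 7 did not pass, at a median log2 fold change of 0.31. The share of 29.4% each way lay near those of all tested genes, 25.4% higher and 22.0% lower. G6pc, the last enzyme of gluconeogenesis, fell from 580 ± 293 to 32.3 ± 14.6 CPM (log2 fold change -4.16), and Pck1, an early enzyme of the same pathway, from 2891 ± 613 to 1472 ± 249 CPM (-0.97). Tsc22d3, the anti-inflammatory factor GILZ, fell by 2.26 on the log2 scale. Igfbp1, a secreted IGF-binding protein gene, rose from 367 ± 133 to 1794 ± 569 CPM (2.29, FDR = 0.000168). Lcn2, an iron-scavenging acute phase gene that neutrophils also make, rose from 29.6 ± 21.2 to 1771 ± 679 CPM (5.90, FDR = 8.6e-06). All 5 tested neutrophil markers were higher after CD95-Ab as well, and their part in the Lcn2 value was not tested. Tat, a classic glucocorticoid-induced aminotransferase gene, did not pass (0.31, FDR = 0.441). Per mouse, the median deviation of the 17 genes was -0.64 to 0.37 in controls and -0.66 to 1.04 after CD95-Ab, so that the groups overlapped.

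Thrb, the main thyroid hormone receptor of hepatocytes, fell. It lies on chromosome 14 at 17660261-18038090 (plus strand) and overlaps the annotated antisense gene Gm48321. The CPM of Thrb were 38.8, 32.6, 33.6, 31.0 and 23.4 in saline-injected controls and 26.1, 21.8, 15.2, 18.1 and 25.0 after CD95-Ab. Saline 5 lay among the mice injected with CD95-Ab, and 3 of these 5 were below every control. Thrb had a log2 fold change of -0.58 ± 0.17 (FDR = 0.0150), -0.63 without saline 5 and CD95-Ab 4, and -0.68 to -0.48 with 1 mouse left out. Thra, the gene of the other thyroid hormone receptor, had 9.15 ± 2.01 and 9.70 ± 4.63 CPM (FDR = 0.833). Of 10 thyroid hormone target genes, 2 rose, 2 fell and 6 did not pass, at a median of -0.12. The share of 20% each way lay near those of all tested genes, 25.4% higher and 22.0% lower. The lower genes were Cyp7a1 and Fgf21, which also stand on the LXR or PPARα lists, and Bcl3, a nuclear IκB protein gene, was higher (33.3 ± 20.9 to 120 ± 53.0 CPM, log2 fold change 1.84). Without any 1 of 7 of the 10 mice, 1 gene was higher in place of 2 (saline 1, 2, 4 and 5, CD95-Ab 1, 2 and 3). Over all fits that left out 1 mouse, 1 to 3 genes were higher. The lipogenic genes Thrsp (-0.79, FDR = 0.211) and Me1 (-0.79, FDR = 0.0959) did not pass, although Me1 did without saline 1 or saline 2 (-0.999 and -0.97). The 10 genes had a median deviation per mouse of -0.41 to 0.44 in controls and -0.31 to 0.25 after CD95-Ab, with overlap.

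Esr1, which carries estrogen signals to lipid metabolism in liver, lies on chromosome 10 at 4611593-5005614 (plus strand) and had the widest relative spread of the 10 genes in controls, a coefficient of variation of 44.5%. Its CPM were 26.6, 17.5, 9.86, 12.9 and 10.6 in saline-injected controls and 16.4, 18.98, 13.2, 7.99 and 18.8 after CD95-Ab. Saline 1 was the highest mouse and CD95-Ab 4 the lowest, and the other values were mixed. The log2 fold change of -0.04 ± 0.30 (FDR = 0.931) took either sign with 1 mouse left out, and its 95% interval of 62.2% to 153% of saline is the widest, as a ratio, of the 5 genes that did not pass. Esr2, the second estrogen receptor gene, had 3 counts in saline 5 and 0 in every other mouse, and was not tested.

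Ahr was the only one of the 10 genes that rose. It lies on chromosome 12 at 35497974-35535038 (minus strand) and overlaps a non-coding gene of the other strand, Gm48236. AHR binds dioxins, tryptophan products and other planar molecules, and with ARNT switches on phase I and phase II enzymes. The CPM of Ahr were 26.7, 25.1, 29.7, 30.5 and 35.2 in saline-injected controls and 44.8, 38.0, 32.05, 46.6 and 46.0 after CD95-Ab. All but CD95-Ab 3 were above every control. In FPKM, CD95-Ab 3 had 5.21, below the controls at 5.29 to 5.72, and the other mice of its group had 7.14 to 9.77. The log2 fold change of Ahr counts was 0.50 ± 0.14 (FDR = 0.0104), that is 141% of saline with a 95% interval of 115% to 173%. It was 0.43 to 0.57 with 1 mouse left out (FDR up to 0.0340). A called log2 fold change of 2 or more was found for 6.59% of tested genes, and that of Ahr was below it. AHR is also made by endothelial and other non-parenchymal liver cells, and 7 of the 8 sinusoidal endothelial markers rose, the list having a median of 0.93 on the log2 scale, and their part was not tested.

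Of the 8 genes of the AHR complex 6 were tested, 3 rose and none fell. Tiparp, an ADP-ribosylating repressor of AHR, went from 11.7 ± 8.41 to 93.4 ± 50.6 CPM (log2 fold change 2.99, FDR = 0.000368). Hsp90aa1, the inducible cytosolic HSP90 chaperone, rose from 96.8 ± 20.6 to 213 ± 25.2 CPM (1.14), whereas the constitutive Hsp90ab1 had 509 ± 84.1 and 510 ± 76.7 CPM. Arnt, which encodes the partner of AHR, rose by 0.29 on the log2 scale (FDR = 0.0383), a call lost with any 1 of 7 of the 10 mice left out (saline 2, 3, 4 and 5, CD95-Ab 1, 2 and 5, FDR up to 0.139) and with other scalings of the totals. Ahrr, the AHR repressor gene, had 2 to 11 counts per mouse and was not tested.

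Among 8 tested AHR target genes of 10 listed, 4 rose, 2 fell and 2 did not pass, at a median of 0.66. Besides Tiparp, the genes that rose were Nfe2l2, the oxidative stress factor NRF2 (53.3 ± 6.56 to 115 ± 20.9 CPM, log2 fold change 1.11), Cyp1b1 (0.400 ± 0.20 to 1.32 ± 0.92 CPM, 1.66) and Gsta1, a glutathione transferase gene (1.78, FDR = 0.0362, lost with any 1 of saline 2, 3 and 4 and CD95-Ab 1, 2 and 4 left out, FDR up to 0.0942). Cyp1a2, a P450 that AHR induces and hepatocytes also express without it, had 525 ± 228 and 344 ± 113 CPM (-0.61, FDR = 0.124, called without saline 2 or CD95-Ab 4, at -0.78 and -0.84). Ugt1a6a, a glucuronidating enzyme gene, was lower (-0.48, FDR = 0.0300), but not with any 1 of saline 1 and 4 and CD95-Ab 2, 3 and 4 left out (FDR up to 0.0755). The number of lower genes in this list was 0 to 3 over the fits that left out 1 mouse, with 0 without saline 1, CD95-Ab 2 or CD95-Ab 3 and 1 without saline 4, saline 5 or CD95-Ab 5. The median deviation of the 8 genes was -0.52 to 0.51 per control mouse and 0.23 to 0.94 per mouse injected with CD95-Ab, so that the groups overlapped.

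Nr5a2, on chromosome 1 at 136842571-136960448 (minus strand), did not pass the test, with an estimate above saline. LRH-1 is a phospholipid-binding receptor that acts as a single molecule and drives bile acid synthesis and glutamine metabolism. Its CPM were 28.9, 29.4, 29.7, 24.7 and 14.6 in saline-injected controls and 43.2, 30.6, 30.6, 23.5 and 44.7 after CD95-Ab. The lowest mice were saline 5 and CD95-Ab 4, and the other 4 CD95-Ab mice exceeded all controls, CD95-Ab 2 and 3 by little. Its log2 fold change was 0.44 ± 0.22 (FDR = 0.121), and 0.40 without saline 5 and CD95-Ab 4 (FDR = 0.0541). With the long-minus-short value of each mouse as a covariate it was 0.46 ± 0.11 and passed (FDR = 0.00421). That covariate was computed from the same data and chosen after they were seen. With it 7712 of all tested genes passed, in place of 6495.

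Of 10 tested LRH-1 target genes of 11 listed, 6 fell, 2 rose and 2 did not pass, with a median log2 fold change of -0.98. Cyp7a1 and Abcg8 have been given above. Cyp8b1, which sets the hydrophobicity of bile acids, fell from 258 ± 131 to 49.5 ± 27.2 CPM (-2.39, FDR = 0.00122), and Gls2, the liver glutaminase gene, from 320 ± 55.2 to 154 ± 51.4 CPM (-1.05). Dgat2, a triglyceride synthesis gene, did not pass (-0.36, FDR = 0.0940), other than without CD95-Ab 3 (-0.45, FDR = 0.0427). The genes that rose were Plk3, a stress kinase (97.4 ± 59.9 to 296 ± 79.3 CPM, 1.60), and Nr0b2, the receptor SHP that represses LRH-1. Nr0b2 went from 31.4 ± 9.43 to 52.6 ± 17.3 CPM (0.74, FDR = 0.0242), but lost the call with any 1 of saline 1, 2 and 3 and CD95-Ab 4 and 5 left out, which leaves 1 higher gene (FDR 0.0511 to 0.0632). The per-mouse median deviation of the 10 genes was -0.25 to 0.14 in controls and -1.44 to -0.66 after CD95-Ab.

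Over all target lists together, 105 of 110 genes were tested, 50 were lower and 20 higher, and 6 stood on more than 1 list. Their log2 fold changes had a median of -0.59. Without saline 5 and CD95-Ab 4 the counts were 47 lower and 18 higher, and with 1 mouse left out 41 to 54 lower and 15 to 20 higher. Hepatocyte markers had a median log2 fold change of -0.41, with 3 of 11 lower and 1 higher, and their part in the target values was not tested.

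The receptors that bind DNA with a retinoid X receptor were summed per mouse as FPKM, over 14 partner genes. The sum was 277, 287, 289, 280 and 281 FPKM in saline-injected controls and 176, 133, 124, 153 and 147 FPKM after CD95-Ab. Controls lay within a narrow band and every mouse injected with CD95-Ab was far below it. The means were 283 ± 5.01 and 147 ± 19.9 FPKM (exact permutation test, two-sided, p = 0.00794, adjusted 0.0143 over 18 quantities of this sum). Unlike the CPM, the deposited FPKM are not adjusted with TMM factors. The log2 of the sum differed by -0.96, and by -1.09 with the FPKM of each mouse rescaled to an equal total. The sum was chosen after the data were seen. It contains Nr1i3, Nr1h4 and Ppara, called lower above, and Ppard and Pparg, called higher, so its test is not independent of those calls. The 3 retinoid X receptor genes together had 81.7 ± 20.8 FPKM in controls and 44.2 ± 12.5 after CD95-Ab (exact permutation test, two-sided, p = 0.0238, adjusted 0.0357). The ratio of retinoid X receptor FPKM to partner FPKM was 0.289 ± 0.073 and 0.303 ± 0.082, and no difference was detectable (exact permutation test, two-sided, p = 0.698). In both groups the lowest ratio belonged to the mouse that stood apart, 0.163 in saline 5 and 0.171 in CD95-Ab 4.

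The make-up of the partner sum differed between the groups. Nr1i3 held 30.2% ± 3.47 of it in controls and 9.16% ± 3.73 after CD95-Ab. The shares of Nr1h3 (15.2% ± 2.63 and 25.1% ± 1.2), Nr1i2 (9.48% ± 1.53 and 14.5% ± 2.45) and Nr1h2 (6.54% ± 0.79 and 12.6% ± 2.23) were higher after CD95-Ab. For these 4 genes the groups did not overlap (exact permutation test, two-sided, p = 0.00794, adjusted 0.0143). The small shares of Ppard, Pparg, Vdr, Rara and Rarg were also higher without overlap, with the same values in that test. In all, the groups were apart for 9 of the 14 shares. Shares have to sum to the whole, so a lower share of Nr1i3 raises the others at equal RNA. For Ppara the share was 8.90% ± 2.39 and 5.89% ± 3.19, with overlap (exact permutation test, two-sided, p = 0.135), and for Nr1h4 22.1% ± 0.68 and 18.2% ± 2.70, also with overlap (p = 0.0159, adjusted 0.0260).

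**Figure D4:**
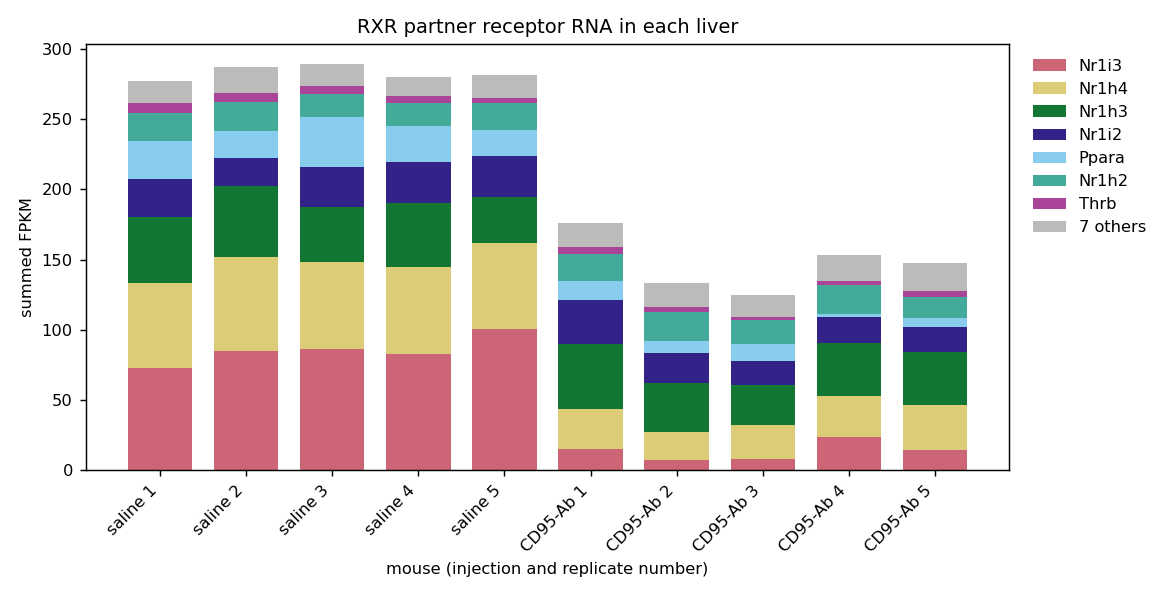
Summed FPKM of the 14 genes whose products pair with a retinoid X receptor, stacked by gene for each mouse, with the axis starting at 0. The 5 control bars reach 277 to 289 FPKM and the 5 bars of mice injected with CD95-Ab 124 to 176 FPKM, with the Nr1i3 segment at the base going from 30.2% to 9.16% of the bar on average.

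Ratios between receptors in the same mouse were tested as 12 pairs. They rest on the same counts as the calls of the single genes, so their p-values are not independent of those calls. Besides those of Nr1i3 to Nr1i2 and Ppara to Ppard, the log2 ratio of Nr1i3 to Rxra differed by -2.29, with the groups apart (exact permutation test, two-sided, p = 0.00794, adjusted 0.0317). That of Ppara to Rxra differed by -0.90 with overlap (exact p = 0.0159, adjusted 0.0476), and by -0.62 without saline 5 and CD95-Ab 4 (exact p = 0.0571). Nr1h3 to Rxra differed by 0.71 and did not pass after adjustment (exact p = 0.0238, adjusted 0.0571). The other 7 pairs had exact p-values from 0.119, for Nr1i2 to Rxra, to 0.373, for Rxra to Rxrb. Nr1i2 to Rxra differed by 0.56, and by 0.81 without saline 5 (exact p = 0.0159).

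Variation within groups was compared between the 10 genes. After each group mean was taken off the log2 CPM, the 45 pairs of genes had a median Pearson r of 0.12 over the 10 mice, with 15 pairs above 0.5 and 7 below -0.5. Nr3c1 and Nr5a2 (r = 0.90), Rxra and Ppara (0.85) and Thrb and Nr5a2 (0.83) were the closest pairs. Nr1i3 ran against Rxra (-0.73) and Ppara (-0.67). These are descriptions over few mice, 2 of which, saline 5 and CD95-Ab 4, differ from the others in their long genes. In these 2 mice Nr1i3 and Ahr were the highest of their group and Rxra, Nr3c1 and Nr5a2 the lowest. Over 12129 genes, the RNAs most like each member by the same measure were Plin4 (0.95) and Pex11a (0.91) for Nr1i2, Itga10 and Gnl3 (both 0.96) for Nr1i3, Tmem167b and Atp6v1c1 (both 0.99) for Rxra, and Sec14l4 (0.97) and Fn1 (0.96) for Ppara. They were Gm26659 (0.94) and Mcm10 (0.91) for Nr1h3, Prkca (0.96) and Entpd1 (0.94) for Esr1, Klhl11 (0.99) and Tmem68 (0.98) for Nr3c1, Zfp260 (0.97) and Zfp146 (0.96) for Thrb, Hyal1 (0.97) and Bet1 (0.95) for Ahr, and Ankrd49 and Cacul1 (both 0.98) for Nr5a2.

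The other nuclear receptor genes of mouse put the 10 in context. Of 39 listed, 30 were tested, 11 fell, 8 rose and 11 did not pass, with a median log2 fold change of -0.29. That is 36.7% lower and 26.7% higher, against 22.0% and 25.4% of all tested genes. Hnf4a, the hepatocyte identity receptor and the most abundant of them, did not pass (550 ± 105 and 434 ± 91.7 CPM, log2 fold change -0.34, FDR = 0.157), and neither did the clock repressor gene Nr1d1 (-0.24, FDR = 0.583). Nr2f2, the receptor COUP-TFII, fell from 19.2 ± 3.73 to 6.65 ± 1.60 CPM (-1.52, FDR = 5.8e-05). The immediate early genes of the NR4A family rose: Nr4a3 from 0.133 ± 0.08 to 5.33 ± 1.83 CPM (5.30), Nr4a1 from 14.5 ± 11.2 to 49.7 ± 20.0 CPM (1.78) and Nr4a2 from 0.330 ± 0.09 to 1.16 ± 0.71 CPM (1.78).

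**Figure D5:**
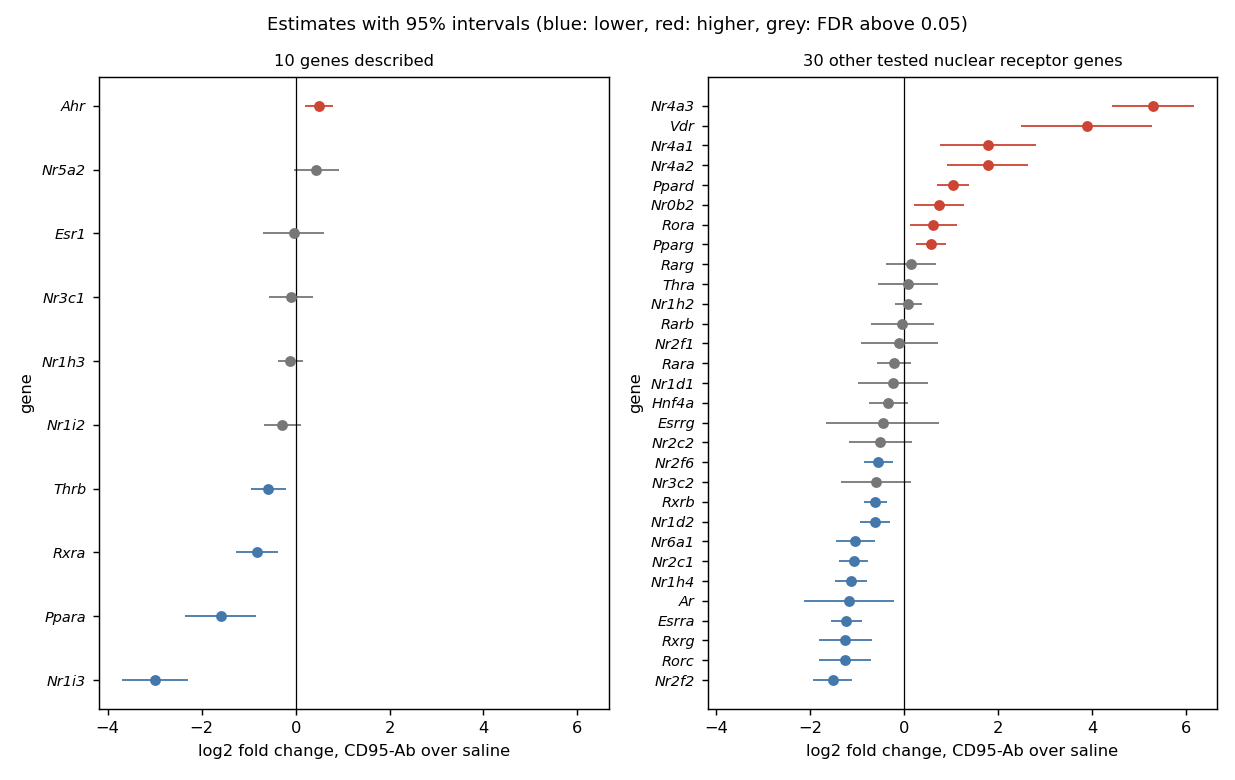
Log2 fold change with 95% interval for the 10 genes (left) and the 30 other tested nuclear receptor genes (right), in blue where lower, red where higher and grey where the FDR was above 0.05. The 10 genes run from -2.99 (Nr1i3) to 0.50 (Ahr), and the others from -1.52 (Nr2f2) to 5.30 (Nr4a3).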

How the data were processed

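Liver RNA of 10 mice was analysed, grouped by the sample labels. RSEM 1.2.19, per the labels, assigned paired reads of 100 bases to genes. The authors deposited an expected count per gene and mouse, which is not normalized and is a whole number in the files. The FPKM deposited beside it is scaled for effective transcript length and the total of each mouse. RSEM shares out reads that fit several genes, so overlapping genes and paralogs depend on that step. The paper's methods name a human Gencode release, whereas the deposited identifiers are those of mouse genes in Ensembl. The genome build, the mouse annotation release and the use of strand are not given in the sources used here, so the transcripts behind the effective lengths are not known. The labels give a body weight of 22 to 25 g and the HiSeq 1000, which differ from the paper.

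Symbols and positions came from GENCODE mouse release 21 (GRCm38), which named 37606 of 38922 identifiers, and promoters from RefSeq. Genes were kept by filterByExpr (minimum count 10), scaled with TMM and compared by quasi-likelihood in edgeR 4.0.16 (R 4.3.3), with Benjamini-Hochberg adjustment over 13719 genes. Standard errors were derived from the F statistic. CPM are per 1000000 of adjusted total. Ratios used log2(CPM + 0.1) and, like summed FPKM and effective lengths, an exact two-sided permutation test. Effective length was the count divided by FPKM and total. Likeness used log2(CPM + 0.1) with each group mean taken off. DESeq2 1.42.0, other scalings and filters, a block by replicate number and the removal of each mouse in turn were alternatives. The code was tested on simulated data with known changes. Python 3.11.15, pandas 2.3.3 and scipy 1.17.1 made the summaries.

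The labels call the samples biological replicates. Mice of 1 group differed by more than sampling noise in all 20 pairs (chi-square per degree of freedom from 39.4 to 515). At the lowest total, 3 counts equal 0.116 CPM, which bounds the precision of low values. No batch is named in the labels.

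The 10 genes and the gene lists were chosen with earlier results of these data known. The genes named are the 10 members, 13 related receptor and AHR complex genes, up to 4 called genes with the largest change and at least 1 CPM and up to 2 most abundant genes of each list, and for each member the 2 genes most like it. The effective lengths, the partner sum, the length covariate and the removal of saline 5 and CD95-Ab 4 were chosen after seeing the data. One gene that meets the naming rule is not reported here.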

Additional observations from a re-analysis of the deposited data

How the results depend on the processing

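Calls of Nr1i3, Rxra, Ppara, Thrb and Ahr held under every alternative run, with FDR of at most 0.0417. Log2 fold changes with 1 mouse left out were -3.36 to -2.82 for Nr1i3, -0.94 to -0.70 for Rxra, -1.77 to -1.38 for Ppara, -0.68 to -0.48 for Thrb, 0.43 to 0.57 for Ahr, -0.41 to -0.17 for Nr1i2, -0.19 to -0.06 for Nr1h3, -0.17 to 0.25 for Esr1, -0.23 to 0.023 for Nr3c1 and 0.29 to 0.54 for Nr5a2. With the length covariate, Nr5a2 passed (0.46), which makes 2 genes higher. Esr1 turned to 0.0010 with the replicate number as a block and to 0.00067 without saline 5 and CD95-Ab 4. The cause was not tested.

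Mice with the same replicate number deviated together with a mean correlation of 0.041 (-0.28 to 0.27), against -0.0069 for different numbers. No pairing by number was detectable, although so few mice cannot exclude one. The fit with the replicate block called 5987 genes and kept the 5 calls. A sign-flip test over 5 such pairs cannot go below 0.0625, which it gave for Nr1i3 to Rxra (-2.29), Ppara to Rxra (-0.90), Nr1h3 to Rxra (0.71), Nr1i3 to Nr1i2 (-2.86), Ppara to Ppard (-2.76), the log2 partner sum (-0.96) and the log2 effective length of Nr1i3 (-0.45).

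Without saline 5 and CD95-Ab 4, Ppara to Rxra was -0.62 and Nr1i2 to Rxra 0.64 (exact p = 0.0571 and 0.0286). Ratios that passed an unadjusted 0.05 with a mouse left out but not with all 10 ranged from 0.39 to 0.81 for Nr1i2 to Rxra, 0.12 to 0.39 for Thrb to Rxra and -0.90 to -0.29 for Thrb to Thra. In the FPKM order, positions with 1 mouse left out were 4 to 5 for Nr1i2 and for Ppara and 8 to 9 for Thrb in controls. After CD95-Ab they were 1 to 2 for Rxra and for Nr1h3, 5 to 8 for Ppara, 6 to 7 for Nr3c1 and 5 to 6 for Nr5a2.

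The number of genes with an FDR of 0.05 or less was 5616 to 6977 with 1 mouse left out, 5630 with at least 10 counts in every mouse and 7712 with the length covariate. Directions of Nr1h2, Thra and Hsp90ab1, all near 0, turned with other scalings and with other changes to the fit, and the cause was not tested. Nr1h2 was -0.011 with library totals only (-0.018 to 0.16 with 1 mouse left out). Thra was -0.053 with library totals only, -0.025 with the block, -0.22 without both mice and -0.23 to 0.27 with 1 mouse left out. Hsp90ab1 was -0.00650 with DESeq2, -0.00655 with RLE factors, -0.0706 with upper-quartile factors, -0.0884 with library totals only, -0.0305 without a filter, -0.0415 without both mice, and -0.0879 to 0.0437 with 1 mouse left out.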
